A study of Mus musculus with 6 samples.

Results

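Foxp3 and the 5 Ikaros family genes Ikzf1, Ikzf2, Ikzf3, Ikzf4 and Ikzf5 were followed through naive CD4 T cells, freshly sorted regulatory T cells and stimulated regulatory T cells of mice with and without YAP. The members were taken by gene symbol, which gave 6 of the 24011 genes in the expression table and 9 of its 32547 transcripts. The study sequenced total RNA from C57BL/6 mice, either wild type (WT) or YAP cKO. In the cKO animals a floxed Yap1 allele was recombined by Cre under the CD4 promoter, which is active from the thymus onward and so deletes in T cells generally. Naive cells were sorted from lymph nodes and spleens as CD4+ CD62L+ CD25-, and natural regulatory T cells (nTregs) as CD4+ CD25 high with any CD62L. Stimulated nTregs received plate-bound anti-CD3 and soluble anti-CD28, each at 2 µg/ml, with IL-2 at 100 U/ml, for 24 h by the treatment text and 48 h by the extraction text. There were 6 libraries, 1 for each genotype and population, and the labels give neither the number or age of the mice behind a library nor the Cre status of the WT animals. Values are FPKM, which divide the sequenced fragments by transcript length and library depth, so levels of different genes can be compared per length.

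Foxp3 is a forkhead transcription factor on the X chromosome that defines the Treg lineage and is needed for suppressive function. The Ikaros family are zinc finger proteins that bind DNA through fingers near the amino end, pair with each other through fingers at the carboxyl end, and recruit repressor complexes such as NuRD. Ikzf1 (Ikaros) is needed for lymphoid development, Ikzf2 (Helios) marks most thymus-derived Tregs, Ikzf3 (Aiolos) is best known in B cells and effector T cells, Ikzf4 (Eos) is a partner of Foxp3 in gene silencing, and Ikzf5 (Pegasus) is the most distant relative. Foxp3 itself is not of this family. The search for C2H2 fingers asked for 2 cysteines separated by 2 residues and then 2 histidines, the last of which could be a cysteine. The translated coding sequence of Foxp3 held no match, which does not exclude a zinc finger of another spacing. That search found 6 matches in Ikzf2, 6 in Ikzf3, 6 in Ikzf4 and 5 in Ikzf5. The translated coding sequences of Ikzf1 and Ikzf2 were 57.9% identical, those of Ikzf1 and Ikzf3 58.2%, and those of Ikzf1 and Ikzf5 34.1%.

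The 6 libraries had between 10210 and 10893 genes at 1 FPKM or more. Yap1, the deleted gene, stood at 0 in all 4 unstimulated libraries and at 0.169 (WT) and 0.235 FPKM (cKO) after stimulation, so it gave no check of the genotype labels. All genotype directions rest on column names, of which those not named WT were read as cKO by elimination. The T cell markers were present in every library: all 6 reached 1 FPKM, with sums of 833 to 1650 FPKM. B cell markers summed to 7.51 to 7.79 FPKM in naive, 39.6 to 47.9 in fresh and 10.9 in both stimulated libraries (5 of 7 reaching 1 FPKM), mostly Cd74 and Cd79b, while Ms4a1 stayed at or under 0.165 and Pax5 was at 0 in 5 of 6 libraries. NK and cytotoxic markers summed to 14.1 to 68.7 FPKM (5 of 7 reaching 1 FPKM), mostly Prf1 in naive cells and Nkg7 in nTregs. Nkg7 was at 15.0 (WT) and 27.8 FPKM (cKO) in fresh and at 19.9 and 63.7 in stimulated nTregs. Klrb1c was at most 1.48 FPKM, Klrk1 at most 0.579 and Ncr1 at most 0.401. CD8 markers summed to 3.59 to 8.9 FPKM, nearly all Cd8b1, with Cd8a at most 0.362. Myeloid markers summed to 31.9 to 56.1 FPKM (4 of 8 reaching 1 FPKM, mostly Cst3), and the 4 erythroid markers to at most 1.04. The part of these other cells in the members' values was not tested. In bulk RNA, fewer cells of a type and less RNA per cell cannot be told apart.

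Foxp3 lay on chromosome X (mm10, chrX:7573644-7595245 in the reference gene model, plus strand). Its level was 2.98 FPKM in WT and 3.30 in cKO naive cells. Fresh nTregs had 46.6 (WT) and 45.9 FPKM (cKO). Stimulated nTregs had 56.9 (WT) and 57.8 FPKM (cKO). All 4 nTreg libraries thus lay far above both naive libraries, and stimulated lay above fresh in both genotypes. Foxp3 was 15.7-fold higher in fresh nTregs than in naive cells in WT and 13.9-fold higher in cKO, a limma difference of 3.51 ± 0.09 (SE) on the log2(FPKM + 1) scale with an adjusted p of 9.52e-06. Stimulation raised it by a factor of 1.22 in WT and 1.26 in cKO, a log2 difference of 0.30 with an adjusted p of 0.028 by limma. That smaller rise was no longer called when any of the 4 nTreg libraries was left out, with adjusted p between 0.0616 and 0.242 and log2 differences of 0.26 to 0.35. Here and below the limma error combines a gene's own spread with that of genes of similar level. The own spread is that of a population difference over the 2 genotypes, or of a genotype difference over the 3 populations, not over mice.

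**Figure D1:**
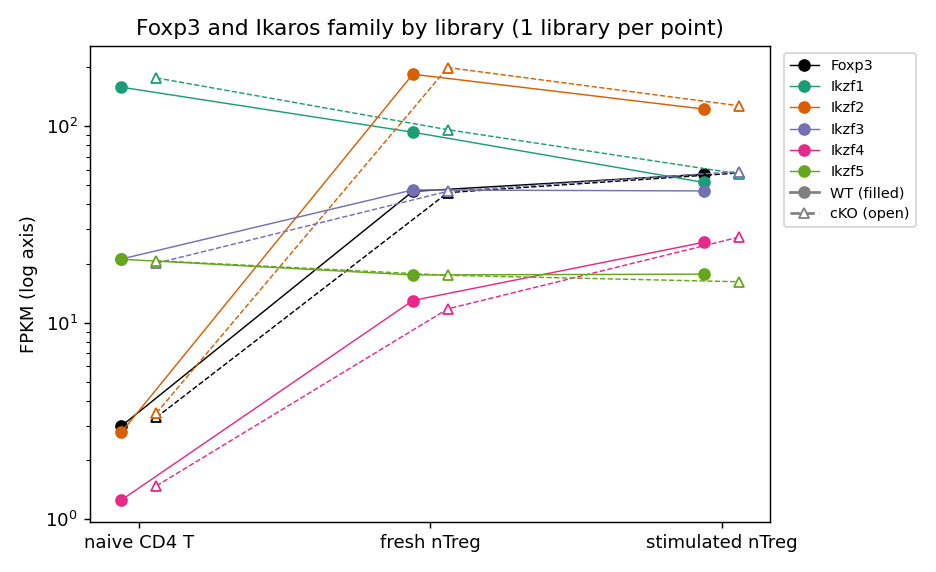
FPKM on a log axis for Foxp3 and Ikzf1 to Ikzf5 in naive CD4 T cells, fresh nTregs and stimulated nTregs; each point is 1 library (filled circles WT, open triangles cKO) and lines join libraries of 1 genotype. Ikzf2, Foxp3 and Ikzf4 climb from 1.25 to 3.47 FPKM in naive cells to at least 11.8 FPKM in nTregs, Ikzf1 descends from 158 and 176 FPKM, and the WT and cKO points of a gene lie close together.

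The table held 3 Foxp3 transcripts, which share 1 coding sequence of 429 codons and differ in their non-coding 5′ exons. Variant 2 (NM_054039) starts upstream, at position 7579669. Variant 3 (NM_001199348) starts downstream with a first exon of 96 nt (chrX:7580483-7580578). Variant 1 (NM_001199347), which also starts upstream, had at most 8.07e-05 FPKM in any library. The 250 bases before each of the 2 annotated starts (RefSeq, GRCm38.p6, plus strand) are shown because the transcripts that begin there moved apart between the populations; the upstream window ends a few bases past the start of variant 2 in the gene model, and capitals mark motif matches.
Foxp3 upstream start, chrX:7579426-7579675: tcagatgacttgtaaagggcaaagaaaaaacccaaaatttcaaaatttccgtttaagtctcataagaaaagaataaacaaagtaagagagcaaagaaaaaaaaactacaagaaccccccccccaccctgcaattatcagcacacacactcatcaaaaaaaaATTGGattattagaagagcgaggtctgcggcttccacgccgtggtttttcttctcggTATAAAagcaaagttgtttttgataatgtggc
Foxp3 downstream start, chrX:7580233-7580482: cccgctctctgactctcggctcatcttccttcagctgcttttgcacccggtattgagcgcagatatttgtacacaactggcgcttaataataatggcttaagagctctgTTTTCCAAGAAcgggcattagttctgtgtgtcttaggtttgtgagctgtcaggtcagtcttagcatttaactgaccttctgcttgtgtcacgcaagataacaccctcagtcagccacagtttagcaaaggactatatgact
The 2 starts lie 807 nt apart. The upstream window held TATAAA (the TATA box) at -32 and, on the minus strand, CCAAT (the CCAAT box) at -89, motifs found on either strand of 12.4% and 33.8% of 32851 promoter windows of the same length. The downstream window held GGAAAA (an NFAT core) on the minus strand at -141, overlapping TTCNNNGAA (a STAT site) at -139, found in 20.4% and 7.0% of windows. Searches of both strands for the RUNX core TGTGGT (in 14.0% of all windows), the forkhead site TGTTTAC (3.2%), the Ikaros core TGGGAA (21.6%), the AP-1 site TGACTCA (4.5%) and the TEAD core GGAATG (12.6%) found no match in these 2 windows, which says only that the letters are not there.

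Variant 2 carried the nTreg level of Foxp3. It was at 0.000307 FPKM in WT naive cells and 0.435 in cKO naive cells. In fresh nTregs it was at 44.8 (WT) and 44.4 FPKM (cKO), and after stimulation at 55.0 and 56.2. In estimated fragments these were about 0 and 14.4 in naive cells and between 1455 and 1948 in the nTreg libraries. Variant 2 was higher in fresh nTregs than in naive cells by 5.25 ± 0.17 (SE) on the log2(FPKM + 1) scale (limma over 14369 transcripts, adjusted p 0.00151). The stimulated and fresh levels of variant 2 differed by 0.31, adjusted p 0.225, which did not pass the threshold; under an equal FPKM sum it was 0.88, adjusted p 0.0165.

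Variant 3, from the downstream start, had its highest values in naive cells. It was at 2.98 (WT) and 2.86 FPKM (cKO) in naive cells, at 1.84 and 1.54 in fresh nTregs, and at 1.94 and 1.59 after stimulation. The naive and nTreg values did not overlap, but the limma difference of -0.55 ± 0.18 (SE) had an adjusted p of 0.125. As a share of Foxp3 FPKM, variant 3 was 99.99% and 86.8% in naive cells (WT first), against 3.95% and 3.34% in fresh and 3.41% and 2.75% in stimulated nTregs. Its FPKM over the full length of 3681 nt correspond to between 49.2 and 92.4 estimated fragments a library, against a floor of 3 fragments. Most of that length is shared with the other transcripts, and only the first exon of 96 nt is particular to variant 3. The estimate is therefore not a count of fragments that set variant 3 apart. Since the transcripts share all coding exons, the split between them rests on the quantifier's model and the few reads on the first exons. Those first exons also overlap another gene, Flicr, described below.

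Of the 8 member transcripts that entered the transcript fit, 6 were called between fresh nTregs and naive cells, where 13.1% of all transcripts were called. Between stimulated and fresh nTregs 4 were called, against 29.6% of all transcripts. For genotype none was called, against 0.0348%, and no unadjusted limma p was under 0.05.

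Genes that overlap Foxp3 moved in opposite directions. Flicr, a long non-coding RNA on the same strand known as a modifier of Foxp3 levels, shares 274 nt with Foxp3 exons, within chrX:7579669-7580578. It was at 1.10 and 1.09 FPKM in naive cells, then 14.2 and 14.3 in fresh nTregs, and 17.5 and 15.1 after stimulation, WT first. Its fresh minus naive log2 difference was 2.87 (limma, adjusted p 4.62e-05). Ccdc22, an endosomal trafficking gene on the opposite strand, shares 590 nt, or 15.0% of Foxp3 exonic bases, at the 3′ end (chrX:7593809-7595055). It was at 15.7 and 17.9 FPKM in naive cells, against 9.82 and 8.18 in fresh nTregs, and 4.82 and 4.76 after stimulation. Ccdc22 fell between naive cells and fresh nTregs by 0.83 on the log2 scale (limma, adjusted p 0.00593) and again with stimulation by 0.78 (adjusted p 0.00444). The libraries were stranded, but whether strand was used in quantification is not given in the sources used here. Reads of Ccdc22 and Foxp3 in their shared bases therefore cannot be told apart, which bears most on the low naive values of Foxp3. Among the other neighbours, Cacna1f, a calcium channel gene, was at 0 except for 0.0227 FPKM in WT stimulated nTregs. Ppp1r3f was at 4.37 and 5.58 FPKM in naive cells, then 6.85 and 6.62 in fresh nTregs, and 2.54 and 3.27 after stimulation.

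**Figure D2:**
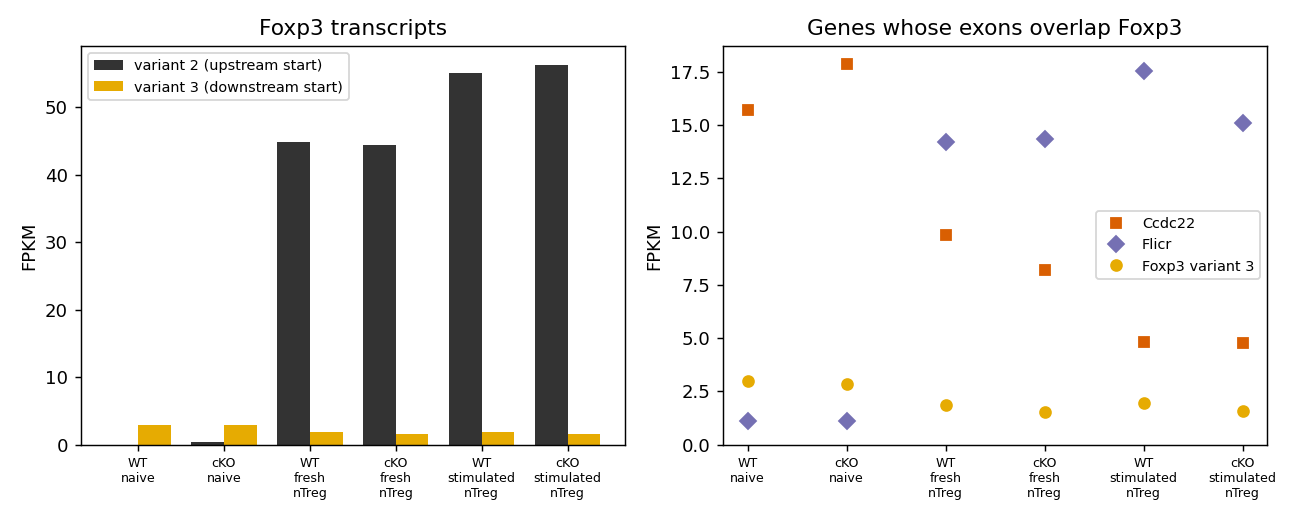
Left, FPKM of Foxp3 variant 2 (upstream start, dark bars) and variant 3 (downstream start, yellow bars) in each of the 6 libraries; right, FPKM of the overlapping genes Ccdc22 (squares) and Flicr (diamonds) beside variant 3 (circles). Variant 2 is near 0 in naive cells and between 44.4 and 56.2 FPKM in nTregs, while variant 3 stays between 1.54 and 2.98 FPKM in every library.

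Ikzf2, the gene of Helios (mm10, chr1:69531214-69687245, minus strand), showed the widest rise of the family. It was at 2.77 FPKM in WT naive cells and 3.47 in cKO naive cells. Fresh nTregs had 184 (WT) and 199 FPKM (cKO), and stimulated nTregs 122 and 127. The 3 populations did not overlap, with fresh nTregs on top. Ikzf2 was 66.4-fold higher in fresh nTregs than in naive cells in WT and 57.3-fold in cKO, a limma log2 difference of 5.55 ± 0.08 (SE), adjusted p 4.81e-06. This was the third largest rise among the 11224 genes fitted. With stimulation Ikzf2 fell to 0.664 of the fresh level in WT and 0.639 in cKO, a log2 difference of -0.61 (limma, adjusted p 0.00206).

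Ikzf4, the gene of Eos (mm10, chr10:128630843-128645991, minus strand), was the least abundant member in naive and fresh cells. Naive cells had 1.25 (WT) and 1.48 FPKM (cKO), on an estimated 48 and 67 fragments. Fresh nTregs had 13.0 (WT) and 11.8 FPKM (cKO), and stimulated nTregs 25.7 and 27.3. Its values climbed at each step without overlap. The fresh minus naive log2 difference was 2.50 ± 0.12 (SE) (limma, adjusted p 8.34e-05), and stimulation added 1.04 (adjusted p 0.00106), a 1.98-fold rise in WT and a 2.32-fold rise in cKO. Ikzf4 and Ikzf2, both high in nTregs, thus moved in opposite directions with stimulation in the deposited scaling.

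Ikzf3, the gene of Aiolos (mm10, chr11:98464902-98546031, minus strand), was already well expressed in naive cells. It was at 21.1 (WT) and 20.1 FPKM (cKO) in naive cells and at 47.4 and 46.6 in fresh nTregs. Stimulated nTregs had 46.8 (WT) and 58.8 FPKM (cKO), so only the cKO library lay above both fresh libraries. Ikzf3 was 2.25-fold higher in fresh nTregs than in naive cells in WT and 2.32-fold in cKO (limma log2 difference 1.15 ± 0.11 SE, adjusted p 0.00114). The stimulated minus fresh difference was 0.16, adjusted p 0.298, and was not called.

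Ikzf1, the gene of Ikaros (mm10, chr11:11685003-11772926, plus strand), was the member that fell at both steps. Naive cells had 158 (WT) and 176 FPKM (cKO). Fresh nTregs had 93.2 (WT) and 95.9 FPKM (cKO), and stimulated nTregs 51.7 and 57.2. The values of the 3 populations did not overlap. Fresh nTregs held 0.59 of the naive level in WT and 0.545 in cKO, a limma log2 difference of -0.81 ± 0.07 (SE), adjusted p 0.000821. Stimulated nTregs held 0.555 of the fresh level in WT and 0.596 in cKO, a log2 difference of -0.79, adjusted p 0.00062.

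The table held 2 Ikzf1 transcripts, a longer variant 1 (NM_001025597, 515 codons) and a shorter variant 2 (NM_009578, 428 codons). Variant 2 lacks coding exon 4 (chr11:11748311-11748571), which is 261 nt long, keeps the reading frame and encodes 87 codons. The exon is printed because it holds 1 of the 6 C2H2 matches of variant 1, leaving 5 in variant 2; capitals mark the codons of the 2 cysteines and 2 histidines of that finger.
Ikzf1 exon 4 of variant 1: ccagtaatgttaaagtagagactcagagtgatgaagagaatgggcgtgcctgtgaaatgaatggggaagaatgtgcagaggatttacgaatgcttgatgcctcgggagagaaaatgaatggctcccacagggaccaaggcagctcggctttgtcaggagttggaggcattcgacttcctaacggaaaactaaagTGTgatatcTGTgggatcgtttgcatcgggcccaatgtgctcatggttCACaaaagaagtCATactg
The junctions that set the transcripts apart are given as 15 bases on each side (GRCm38, plus strand), with exon 4 in capitals.
Ikzf1 variant 1, exon 3 into exon 4: gtgatcgaggcatggCCAGTAATGTTAAAG
Ikzf1 variant 1, exon 4 into exon 5: AAAGAAGTCATACTGgtgaacggcctttcc
Ikzf1 variant 2, exon 3 into the exon after the skipped one: gtgatcgaggcatgggtgaacggcctttcc

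Variant 1 was the more abundant form in every library. It was at 122 and 128 FPKM in naive cells, against 72.5 and 75.1 in fresh nTregs and 37.7 and 43.6 after stimulation, WT first. Variant 2 was at 36.1 and 47.7 FPKM in naive cells, then 20.7 and 20.8 in fresh nTregs, and 14.0 and 13.6 after stimulation. Both transcripts were lower in fresh nTregs than in naive cells (limma log2 differences -0.75, adjusted p 0.0109, and -0.97, adjusted p 0.0242) and lower again after stimulation (-0.85, adjusted p 0.00519, and -0.56, adjusted p 0.0445). Under an equal FPKM sum the falls of variant 1 were -0.55 (adjusted p 0.0148) and -0.28 (0.0254), and those of variant 2 were not called, at -0.77 (0.0525) and -0.01 (0.947). The ratio of variant 1 to variant 2 was 3.37 (WT) and 2.69 (cKO) in naive cells, against 3.50 and 3.60 in fresh nTregs, and 2.70 and 3.21 after stimulation, highest in fresh nTregs in both genotypes, while naive and stimulated cells took opposite orders. As a share of estimated Ikzf1 fragments, variant 2 was 8.13% in WT naive cells (Wilson 95% interval 7.4 to 8.91) and 10.0% in cKO naive cells (9.29 to 10.75). Those 2 intervals did not overlap, but they cover counting error only and take fragments assigned by the quantifier as counted ones. The error of that assignment is left out, so the intervals are too narrow to set the 2 shares apart. With 1 library each the difference also has no replicate check. The other 4 libraries lay between 7.65% and 9.96%. The annotated transcripts also differ in their first exon (256 against 24 nt) and last exon (4046 against 918 nt), so the split does not rest on exon 4 alone. Both of these exons of variant 2 lie within the longer ones of variant 1, so only its exon junction is particular to it.

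**Figure D3:**
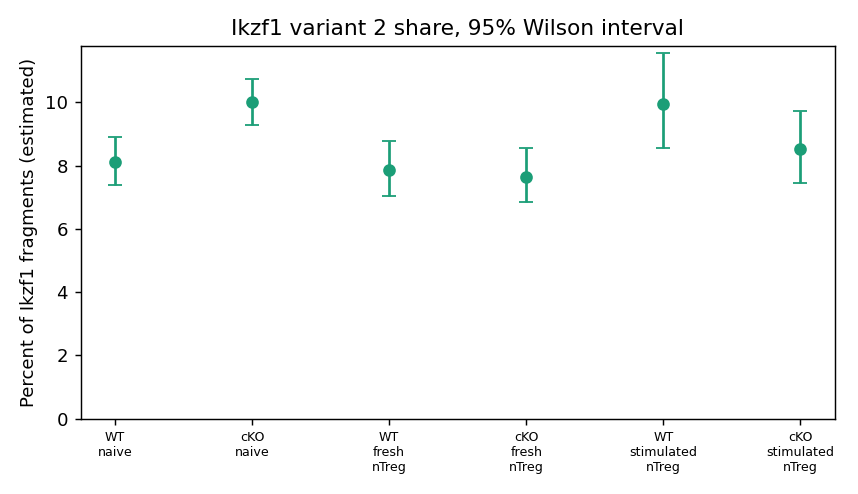
Share of estimated Ikzf1 fragments assigned to variant 2, in percent, for each of the 6 libraries. Points are single libraries and bars the 95% Wilson interval for counting error, which leaves out the error of assigning fragments to transcripts. The shares run from 7.65% (cKO fresh nTregs) to 10.0% (cKO naive cells).

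Ikzf5, the gene of Pegasus (mm10, chr7:131388652-131410521, minus strand), varied least. It was at 21.0 (WT) and 20.7 FPKM (cKO) in naive cells, then 17.5 and 17.4 in fresh nTregs, and 17.7 and 16.2 after stimulation. The naive libraries lay above the 4 nTreg libraries, but the limma log2 difference of -0.24 ± 0.09 (SE) had an adjusted p of 0.0836 and was not called, nor was the stimulated minus fresh difference of -0.05 (adjusted p 0.692). Pstk, a kinase of selenocysteine tRNA on the opposite strand, shares 3575 nt or 80.7% of Ikzf5 exonic bases. It was at 18.4 and 15.2 FPKM in naive cells, against 14.7 and 16.1 in fresh nTregs, and 10.4 and 14.1 after stimulation. Without knowing how strand was used, reads of Ikzf5 and Pstk cannot be told apart, so the Ikzf5 values are uncertain.

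Between fresh nTregs and naive cells 5 of the 6 members were called by limma, 4 higher and 1 lower, where 31.3% of all genes were called (16.5% higher, 14.7% lower). Between stimulated and fresh nTregs 4 of 6 were called, Foxp3 and Ikzf4 higher and Ikzf1 and Ikzf2 lower, against 49.8% of all genes (22.5% higher, 27.3% lower), so the count of members called there was near the background. The stimulated libraries had lower FPKM sums, and scaling all libraries to 1 FPKM sum moved the median stimulated minus fresh difference of all genes from -0.05 to 0.47. Equalising only the sum of transcripts of at least 300 nt, a choice made after seeing the data, gave 0.22. Scaling each library by the median ratio of its genes to their mean over the libraries (median of ratios) gave 0.01. Under an equal FPKM sum Ikzf1 was at -0.22 (adjusted p 0.0544), Ikzf2 at -0.04 (0.733), Ikzf3 at 0.72 (0.000699) and Ikzf5 at 0.50 (0.00625). Taken relative to the median gene, the members' differences under an equal FPKM sum were close to those in the deposited scaling. They were -0.69 for Ikzf1 (deposited -0.74), -0.51 for Ikzf2 (-0.57), 0.25 for Ikzf3 (0.20), 0.03 for Ikzf5 (0.001), 0.40 for Foxp3 (0.35) and 1.12 for Ikzf4 (1.09). The called stimulation falls of Ikzf1 and Ikzf2 are therefore falls relative to the other genes, and the fresh against naive calls held under the same scaling. Among all called genes it moved the share that were higher from 52.8% to 80.6% for fresh against naive and from 45.2% to 86.8% for stimulated against fresh. Of the 11373 genes fitted under an equal FPKM sum, 2767 were called higher and 667 lower for fresh against naive. For stimulated against fresh 6724 were called higher and 1022 lower.

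**Figure D4:**
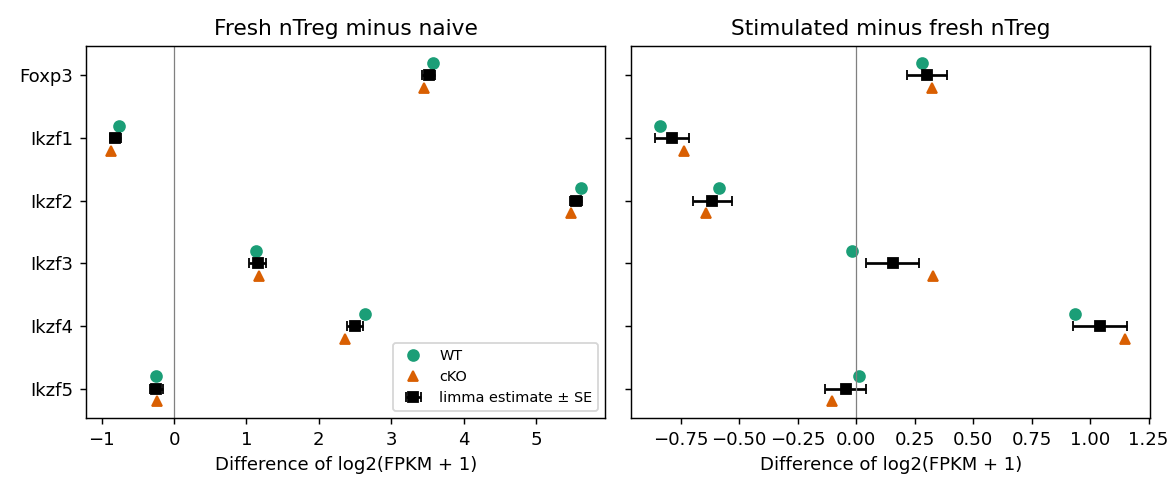
Differences of log2(FPKM + 1) for each member, fresh nTreg minus naive (left) and stimulated minus fresh nTreg (right; the axes differ in range); circles are WT, triangles cKO, and squares the limma estimate with its standard error. WT and cKO lie together on the left, and on the right Ikzf3 has -0.02 in WT against 0.33 in cKO in the deposited scaling (0.62 and 0.82 under an equal FPKM sum).

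The make-up of Ikaros family RNA turned over between naive cells and nTregs. The summed FPKM of the 5 genes was 204 and 222 in naive cells, then 355 and 370 in fresh nTregs, and 264 and 286 after stimulation, WT first. Ikzf1 made up 77.4% and 79.4% of that sum in naive cells, against 26.3% and 25.9% in fresh nTregs, and 19.6% and 20.0% after stimulation. Ikzf2 made up 1.4% and 1.6% in naive cells, then 51.8% and 53.6% in fresh nTregs, and 46.2% and 44.3% after stimulation. The share of Ikzf4 went from 0.6% and 0.7% in naive cells to 3.7% and 3.2% in fresh nTregs and 9.7% and 9.5% after stimulation. A share within the family does not depend on the scaling between libraries.

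**Figure D5:**
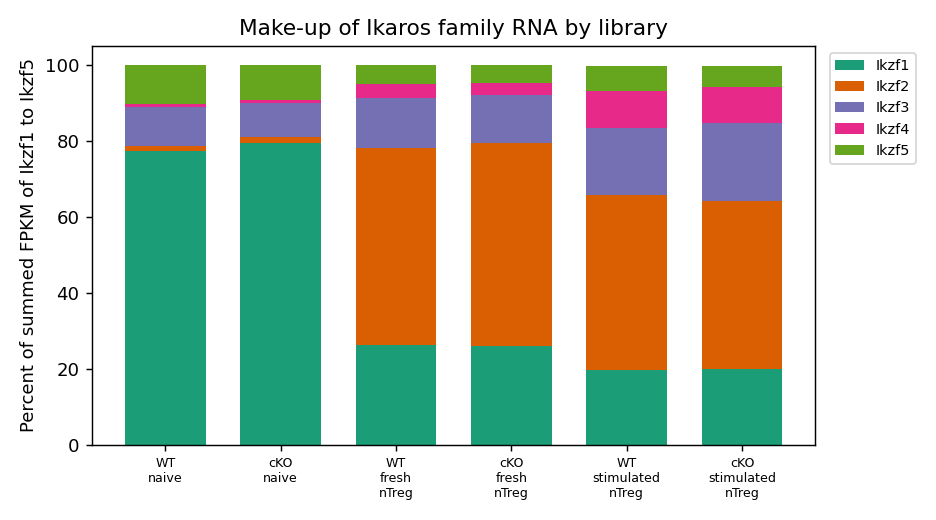
Stacked bars of the percent of summed FPKM of Ikzf1 to Ikzf5 held by each gene, 1 bar for each of the 6 libraries. Ikzf1 fills 77.4% and 79.4% of the naive bars, and Ikzf2 fills 44.3% to 53.6% of the nTreg bars.

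Ordered by level, naive cells had Ikzf1 first, then Ikzf5 and Ikzf3, whose WT and cKO values overlapped, then Foxp3 and Ikzf2, which also overlapped, and Ikzf4 last. In fresh nTregs the order was Ikzf2, Ikzf1, Ikzf3, Foxp3, Ikzf5 and Ikzf4, and no neighbours overlapped, although Ikzf3 (46.6 to 47.4 FPKM) and Foxp3 (45.9 to 46.6) nearly met. After stimulation Ikzf2 stayed first. Foxp3, Ikzf1 and Ikzf3 overlapped with each other, and Ikzf4 had passed Ikzf5 to leave Ikzf5 last.

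No member was called between the genotypes over the 3 populations, where limma called 0.374% of all genes, and none had an unadjusted p under 0.05. The cKO minus WT log2 differences were 0.04 for Foxp3, 0.11 for Ikzf1, 0.14 for Ikzf2, 0.08 for Ikzf3, 0.03 for Ikzf4 and -0.05 for Ikzf5, with adjusted p between 0.489 (Ikzf2) and 0.924 (Ikzf4). As deposited, Ikzf1 and Ikzf2 were higher in cKO in 3 of 3 populations, but under an equal FPKM sum their stimulated differences turned to -0.01 and -0.10. Ikzf5 was lower in 3 of 3, also under the 3 other scalings tried. Within a population, 0 members were at least 2-fold apart, against 1.2% of genes (naive), 1.03% (fresh) and 1.9% (stimulated).

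The ratios of cKO to WT ran from 0.907 (Ikzf4 in fresh nTregs) to 1.26 (Ikzf3 in stimulated nTregs). For Foxp3 the naive ratio was 1.11 (95% counting interval 0.822 to 1.5), the fresh nTreg ratio 0.985 (0.918 to 1.06) and the stimulated nTreg ratio 1.02 (0.95 to 1.09). Of the 18 ratios, 6 had a counting interval that left out 1. They were Ikzf1 in naive cells (1.11) and stimulated nTregs (1.11), Ikzf2 in naive cells (1.25), fresh nTregs (1.08) and stimulated nTregs (1.04), and Ikzf3 in stimulated nTregs (1.26, interval 1.17 to 1.35). These intervals rest on estimated fragments and leave out all spread between mice and sorts, so they do not test the genotype. They also hold only for the deposited scaling: in stimulated nTregs an equal FPKM sum moved the cKO minus WT log2 difference of Ikzf3 from 0.32 to 0.17 and turned those of Ikzf1 and Ikzf2, as given above.

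The stimulation response of Ikzf3 was -0.02 in WT and 0.33 in cKO on the log2 scale, a difference of 0.34 without a replicate check. Under an equal FPKM sum both genotypes moved up, by 0.62 in WT and 0.82 in cKO, and the difference was 0.20. For Ikzf4 the cKO response exceeded the WT response by 0.21, for Ikzf1 by 0.10 and for Foxp3 by 0.04, while Ikzf2 and Ikzf5 differed by -0.06 and -0.12. Under an equal FPKM sum these differences were 0.07 for Ikzf4, -0.04 for Ikzf1, -0.10 for Foxp3, -0.20 for Ikzf2 and -0.26 for Ikzf5, so that those of Ikzf1 and Foxp3 changed sign. The fresh minus naive difference was smaller in cKO by 0.27 for Ikzf4 and by 0.13 for Ikzf2 and Foxp3. For Ikzf4 and Foxp3 the naive level rests on few fragments.

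Genes known to be induced with Foxp3 were all higher in fresh nTregs than in naive cells: 24 of 24 were called (limma), against 16.5% of all genes called higher. This list and those below were chosen with earlier results of these data known, so such counts are descriptive and not an independent test. Their median log2 difference was 3.88 against -0.02 over all genes. Il2ra, which encodes CD25 and so was part of the sort, went from 0.486 and 1.24 FPKM to 75.3 and 63.7, a difference of 5.27. Lrrc32, the cell surface docking protein for latent TGF-beta, went from 0.248 and 0.901 FPKM to 59.0 and 56.6 (5.25), and Itgae, the integrin CD103, from 0.355 and 0.57 to 44.0 and 61.2 (5.18). With stimulation 12 were higher, 5 lower and 7 not called (median 0.26 against -0.05), where 22.5% of all genes were higher and 27.3% lower. The risers included Socs2, an inhibitor of cytokine signalling (22.6 and 24.2 to 270 and 264 FPKM), Il2ra (to 295 and 285) and Nt5e, the ectonucleotidase CD73 (145 and 135 to 404 and 461). Among the 5 that fell were Klrg1, an inhibitory receptor of terminally differentiated cells (30.5 and 56.4 to 4.05 and 7.74 FPKM), Cd83 (61.5 and 54.0 to 12.7 and 10.5) and Ctla4, the inhibitory receptor of CD28 ligands (663 and 604 to 285 and 283).

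Of 12 genes known as repressed in Tregs that could be tested, 8 were lower and 3 higher in fresh nTregs than in naive cells (median -1.24). Of all genes 14.7% were lower and 16.5% higher there. Pde3b, a cyclic nucleotide phosphodiesterase, went from 73.0 and 51.1 FPKM to 4.17 and 3.26. Cd40lg, the ligand of CD40, went from 25.1 and 24.5 to 8.51 and 5.83, and Lef1, a factor of naive T cells, from 229 and 224 to 75.2 and 69.2. The 3 that rose go against the name of the list: Ifng (1.50 and 0.954 to 17.7 and 33.2 FPKM) and Il4 (0 in both naive libraries, 1.24 and 1.55 in fresh nTregs) encode effector cytokines, and Ptpn22 (50.7 and 48.0 to 83.4 and 75.2) a phosphatase that dampens receptor signalling. With stimulation 9 of 12 were lower and none higher (median -0.76), against 27.3% and 22.5% of all genes. The falls were led by Satb1 (63.5 and 54.7 to 18.1 and 13.2 FPKM), Tcf7 (98.0 and 96.9 to 30.8 and 26.7) and Il7r (72.2 and 44.0 to 18.2 and 17.2). Under an equal FPKM sum 5 were lower and 1 higher after stimulation, against 1022 lower and 6724 higher of 11373 genes. By median of ratios 9 were lower and 0 higher, against 2699 lower and 2839 higher of 11229 genes.

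The transcription factors that work with Foxp3 moved less uniformly. Of 20, 7 were higher and 1 lower in fresh nTregs than in naive cells (limma, median 0.26), where 16.5% of all genes were higher and 14.7% lower. Under an equal FPKM sum 12 were higher and 0 lower, against 2767 higher and 667 lower of 11373 genes. Hdac9, a class II deacetylase, went from 0.463 and 0.152 FPKM to 2.41 and 2.09, Gata3 from 9.91 and 13.5 to 27.6 and 25.9, and Hif1a, the hypoxia factor, from 59.4 and 57.6 to 129 and 129. Bach2, a repressor of effector programmes, was the 1 that fell (19.5 and 16.7 to 14.8 and 10.2 FPKM). This call was lost under an equal FPKM sum (-0.33, adjusted p 0.08) and kept by median of ratios (-0.48, adjusted p 0.0274). With stimulation 5 rose and 8 fell, where 49.8% of all genes were called. Under an equal FPKM sum 12 rose and 2 fell, against 6724 higher and 1022 lower of 11373 genes. By median of ratios 6 rose and 7 fell, against 2839 higher and 2699 lower of 11229 genes. The risers were led by Irf4, a factor induced by receptor signalling (26.4 and 32.5 to 60.0 and 79.9 FPKM), Xbp1 (45.7 and 39.1 to 78.5 and 113) and Ezh2, the histone methyltransferase of Polycomb (17.9 and 21.0 to 38.3 and 41.9). The fallers were led by Rel, the NF-kB subunit c-Rel (36.6 and 33.9 to 17.5 and 13.5 FPKM), Foxo1 (50.8 and 49.1 to 23.4 and 21.3) and Nfatc1 (44.2 and 39.3 to 22.9 and 24.4). The fall of Nfatc1 was not called under an equal FPKM sum (-0.24, adjusted p 0.0551) but was called by median of ratios (-0.73, adjusted p 0.00141).

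Of the other forkhead P genes, Foxp2 was too low to test. Foxp1, which keeps naive T cells quiescent, was at 74.4 and 67.4 FPKM in naive cells, against 58.4 and 47.1 in fresh nTregs and 72.5 and 58.6 after stimulation. Its stimulation rise was called (0.31, limma adjusted p 0.0214). The call of its fresh minus naive fall (-0.43, adjusted p 0.0114) was lost under an equal FPKM sum (-0.23, adjusted p 0.135) and kept by median of ratios (-0.39, adjusted p 0.0168). Foxp4 rose from 3.82 and 3.61 FPKM in naive cells to 6.47 and 6.69 in fresh nTregs (0.69, adjusted p 0.0142).

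The co-repressors that Ikaros proteins recruit differed little between naive cells and fresh nTregs. Of 17, 1 was higher and 2 lower (limma, median -0.08), where 31.3% of all genes were called. Hdac1, a deacetylase of NuRD and Sin3 complexes, rose from 36.2 and 41.5 FPKM to 44.8 and 60.9, while Ctbp1 (77.7 and 77.8 to 58.4 and 60.7) and the NuRD remodeller Chd3 (148 and 153 to 124 and 125) fell. Under an equal FPKM sum the falls lost their call, at -0.18 for Ctbp1 (adjusted p 0.158) and -0.08 for Chd3 (0.509). Median of ratios kept the call of Ctbp1 (-0.34, adjusted p 0.0386) but not that of Chd3 (-0.23, 0.0517). With stimulation 5 rose and 5 fell (median -0.17), where 49.8% of all genes were called. Under an equal FPKM sum 12 rose and 0 fell, against 6724 higher and 1022 lower of 11373 genes. By median of ratios 5 rose and 4 fell, against 2839 higher and 2699 lower of 11229 genes. Rbbp7, a histone chaperone (84.2 and 88.8 to 122 and 149 FPKM), Ctbp2 (1.44 and 1.49 to 2.76 and 2.55) and Gatad2b (12.4 and 9.96 to 16.8 and 14.5) rose most. Chd3 (to 86.8 and 95.3), Mta2 (85.8 and 89.3 to 65.1 and 64.1) and Sin3b (81.4 and 78.4 to 53.3 and 70.9) fell most. All 3 turned to differences of 0.12 to 0.20 under an equal FPKM sum. Median of ratios kept the calls of Chd3 (-0.38, limma adjusted p 0.00609) and Mta2 (-0.37, 0.00926) but not that of Sin3b (-0.31, 0.0597).

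The cereblon ligase, through which lenalidomide-type drugs degrade Ikaros and Aiolos, had 0 of 5 subunits called between fresh nTregs and naive cells by limma, against 31.3% of all genes. With stimulation Cul4b rose (24.3 and 23.4 to 32.1 and 30.8 FPKM) and Crbn, the substrate receptor, fell (50.2 and 40.2 to 42.6 and 34.0), where 49.8% of all genes were called. The Crbn difference of -0.24 turned to 0.33 under an equal FPKM sum. It was -0.17 and not called by median of ratios (limma adjusted p 0.115). Under an equal FPKM sum 5 of 5 subunits rose, against 6724 higher and 1022 lower of 11373 genes. Of 11 genes linked to CpG methylation or enhancer control at Foxp3, 2 were higher and 1 lower in fresh nTregs, where 31.3% of all genes were called. Uhrf1, which brings DNA methyltransferase to replicating DNA, went from 1.33 and 2.19 FPKM in naive cells to 4.75 and 7.54 in fresh and 17.8 and 28.9 after stimulation, and was called at both steps. Tet2, a 5-methylcytosine oxidase, went from 8.89 and 8.87 to 14.4 and 15.2 and then 20.9 and 21.8, while Tet1 went from 3.88 and 4.26 to 2.03 and 1.82 and then 1.05 and 0.541. Both Tet1 falls lost their call under an equal FPKM sum, where they went from -0.79 to -0.62 (adjusted p 0.0518) and from -0.72 to -0.43 (adjusted p 0.0917). Median of ratios kept both calls, at -0.76 (adjusted p 0.0214) and -0.69 (0.0186). With stimulation 4 of the 11 rose and 5 fell, also by median of ratios, where 49.8% of all genes were called in the deposited scaling. Under an equal FPKM sum 6 rose and 1 fell, against 6724 higher and 1022 lower of 11373 genes. The maintenance methyltransferase gene Dnmt1 rose (34.3 and 37.6 to 43.1 and 62.3 FPKM), and Ets1 (584 and 534 to 327 and 304) and Tet3 (21.5 and 19.1 to 12.8 and 11.5) fell. The call of Tet3 was lost under an equal FPKM sum (-0.16, adjusted p 0.296) and kept by median of ratios (-0.64, adjusted p 0.0041). Mbd2 stands in the lists of co-repressors and of CpG control alike. No gene of these lists was called between the genotypes by limma, which called 0.374% of all genes.

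The genes whose pattern was most like that of Foxp3, by the root mean square difference of log2(FPKM + 1) centred on each gene's mean over the 6 libraries, were Ccr4 (0.104), Eea1 (0.105), Osbpl3 (0.114), Gsta4 (0.115) and Maf (0.166). Ccr4, a chemokine receptor, was at 0.891 and 1.17 FPKM in naive cells, then 19.9 and 22.3 in fresh nTregs, and 23.2 and 24.4 after stimulation. Flicr stood 24th, Ikzf4 37th, Ikzf2 189th and Ikzf3 533rd on the Foxp3 list. Nearest to Ikzf2 were Rgs16 (0.361), Serpina3g (0.365), Nrp1 (0.44), Il10 (0.48) and Coro2a (0.487). Nrp1, a co-receptor used to mark thymus-derived Tregs, was at 3.35 and 3.64 FPKM in naive cells, against 104 and 102 in fresh nTregs, and 121 and 105 after stimulation. Nearest to Ikzf4 were Pdcd1lg2 (0.091), Ybx3 (0.124), Src (0.144), Sh3bgrl2 (0.148) and Lclat1 (0.176). Pdcd1lg2, the PD-1 ligand PD-L2, was at 0.359 and 0.236 FPKM in naive cells, then 6.17 and 5.86 in fresh nTregs, and 12.5 and 13.8 after stimulation. These distances describe 6 libraries that share their populations. Ranked by Pearson correlation in place of distance, the nearest 5 shared 0 genes with this list for Foxp3, 1 for Ikzf2 and 1 for Ikzf4.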

How the data were processed

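The authors deposited FPKM per RefSeq transcript for 6 mouse libraries, made with TopHat, Cuffdiff and Cuffnorm on mm10 after FastQC, per the submitters' processing notes, which name no versions. Per the labels' protocols, the libraries were stranded and depleted of ribosomal RNA, from 322 ng of total RNA with 12 PCR cycles. FPKM depend on the other RNA in a library. Transcripts under 300 nt held 27.3% to 29.3% of the sum in the naive and fresh libraries. In stimulated nTregs they held 12.5% (WT) and 13.2% (cKO), so an equal FPKM sum carries this difference into the stimulated minus fresh changes. Repeated rows were counted once, and transcripts were summed per gene.

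The members and gene lists were chosen with earlier results of these data known. Named are all members and their transcripts, the up to 3 largest called changes per list and direction that both genotypes share, the 5 genes nearest in pattern and the neighbours of Foxp3. limma 3.58.1 (R 4.3.3) was fitted to log2(FPKM + 1), a pseudocount of 1 that understates changes of low genes, with population and genotype as additive terms and an intensity trend. It used all 6 libraries and the 11224 genes with at least 1 FPKM in at least 2 of them, with 2 residual degrees of freedom; an adjusted p under 0.05 (Benjamini-Hochberg) was called. Its errors measure spread between libraries, not mice, and are drawn toward those of genes of similar level (4.02 prior degrees of freedom). The fit was also run on simulated data with independent noise and no shift between libraries, so that run does not bear on scaling or on effects of single libraries.

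Depth is estimated: 1 fragment on 1 kb was worth 0.108 to 0.141 FPKM, from steps between low values, of which 78.6% to 84.5% were whole within 0.15 fragment. Counting intervals (95%) are exact for ratios and Wilson for shares, and PCR copies are not independent. Both kinds take estimated fragments as counts, and those for shares leave out the error of assigning fragments to transcripts. Gene models and coding sequences are from the reference annotation (GRCm38) and promoters from RefSeq, whose table held 3 of the 6 members. One marker gene is not reported here and was left out of the sums.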

Additional observations from a re-analysis of the deposited data

Results flagged for a closer look

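The stimulated minus fresh differences of WT and cKO had opposite signs for 2 members. WT barely changed, at 0.988-fold for Ikzf3 and 1.009-fold for Ikzf5. Neither difference between the genotypes was tested, since each group is 1 library. Ikzf3 changed by -0.02 in WT and by 0.33 in cKO on the log2(FPKM + 1) scale. Ikzf5 changed by 0.01 in WT and by -0.1 in cKO. The opposite signs belong to the deposited scaling: under an equal FPKM sum Ikzf3 changed by 0.62 and 0.82 and Ikzf5 by 0.63 and 0.37, WT first, and by median of ratios Ikzf3 changed by 0.064 and 0.37 and Ikzf5 by 0.091 and -0.063.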

How the results depend on the processing

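No paired analysis was possible because each group has 1 library and the labels carry no replicate numbers that pair mice or cultures; the additive fit itself compares populations within each genotype. The called rises and falls of Foxp3, Ikzf1, Ikzf2, Ikzf3 and Ikzf4 between naive cells and fresh nTregs kept their direction and call under every alternative run, and Ikzf5 was called there only without the cKO stimulated library (adjusted p 0.0496). The members called numbered 5 to 6 for fresh against naive, 3 to 4 for stimulated against fresh and 0 for genotype when 1 library was left out.

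Over all genes, the fresh against naive count of 3508 became 2183 with no filter and 1332 to 4617 with a library left out, and that of 5588 for stimulated against fresh became 2895 to 5319. The genotype count of 42 became 4 with no filter, 12 with the top transcript per gene and 14 to 54 with a library left out. The number of genes at least 2-fold apart went from 125 to 274 in naive cells, 112 to 275 in fresh nTregs and 211 to 494 in stimulated nTregs at a pseudocount of 0.1, to 223, 195 and 350 with the top transcript, and to 72 in naive cells at a minimum of 5 FPKM. By fragments in place of FPKM, Ikzf1 variant 2 was 8.13%, 10.0%, 7.85%, 7.65%, 9.96% and 8.52% of the gene, against 22.86%, 27.11%, 22.2%, 21.72%, 27.02% and 23.77% (naive, fresh, stimulated, WT first).

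For stimulated against fresh, Foxp3 lost its call with the top transcript (0.31, adjusted p 0.174). Ikzf3 was called under equal FPKM sums of transcripts of at least 300 nt, a scaling chosen after seeing the data (0.45, adjusted p 0.00843), and without the WT stimulated library (0.34, adjusted p 0.0227), and ranged from -0.028 to 0.34 with 1 library left out. Ikzf5 turned to 0.50 under an equal FPKM sum, 0.014 by median of ratios and 0.24 over transcripts of at least 300 nt, and ranged from -0.099 to 0.0083 with 1 library left out. For genotype, Foxp3 turned to -0.017 under an equal FPKM sum and -0.026 over transcripts of at least 300 nt, and Ikzf4 to -0.026 and -0.034. With 1 library left out, the genotype difference ranged from -0.045 to 0.15 for Ikzf3 and from -0.023 to 0.11 for Ikzf4. None of these genotype values was called. The members' transcripts called went from 6 to 5 for fresh against naive under an equal FPKM sum, and from 4 to 5 there and to 3 at a minimum of 0.1 FPKM for stimulated against fresh. The causes were not tested.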
